A study of Schizosaccharomyces pombe with 6 samples.

Results

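Cytosolic ribosomal protein genes with their promoters, 24 in all, were described across 6 tiling arrays that measured newly made histone H3 in fission yeast, Schizosaccharomyces pombe. A gene was taken if its name begins with rpl (large subunit, 13 genes) or rps (small subunit, 11 genes), if it is not mitochondrial, and if it lies in the tiled part of chromosome II. The 24 genes are among 871 protein-coding genes of that stretch that had enough probes to be tested. All 24 passed the filter of at least 2 probes, with 10 probes in each promoter, taken as the 500 bases before the annotated gene start, and 9 to 28 probes in each gene body. The rule uses names and positions and no measured value, although the set was proposed with earlier results of these data known.

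The arrays comprise amo1D, rix1E414K and pob3D (1 array each) and wild type (WT, 3 arrays). The labels give these genotypes by name only. Read as usual in this yeast, amo1D is a deletion of amo1, which encodes a nuclear rim protein, and pob3D a deletion of pob3, whose product is part of FACT, a histone chaperone. In rix1E414K a subunit of the rixosome, a complex known for its part in ribosome biogenesis, is mutated. All strains, WT included, carried a plasmid that makes FLAG-tagged H3 under the invertase promoter. All were held in 15 mM hydroxyurea, which blocks DNA replication, for 4 h in 8% glucose and then for 2 h in 4% sucrose to induce the tagged histone. Cells were fixed in 1% formaldehyde for 20 min, and DNA fragments of 400 to 600 bp were precipitated through the FLAG tag. Each value is the log2 ratio of precipitated DNA (Cy5) over whole-cell extract DNA (Cy3), centred on the median probe of its array, so a gain or loss over the whole genome cannot be seen. Total H3 was not measured, so a low ratio does not separate slow turnover from few nucleosomes.

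Each mutant had 1 array, and nothing in the labels tells if the 3 WT samples were grown apart. P-values thus rest on the spread of the 3 WT samples alone, pooled in part over genes, and that spread may be technical. Each mutant array shared a slide with a WT array (amo1D with replicate 1, rix1E414K with replicate 2, pob3D with replicate 3). Processed signals had array medians between 1018 and 1150 (Cy5) and between 993.2 and 1145 (Cy3), and 99.8% to 99.9% of probes were well above background. The 574 distinct probes of the ribosomal protein genes were well above background on all 6 arrays and none was marked as an outlier. Over the 31 probes of amo1, the median log2 Cy3 signal against the array median was -10.1 on the amo1D array, against -0.95 to -0.75 on the other 5 arrays, and in amo1D just 2 of these probes stood well above background. No probe covers rix1 or pob3, so those labels went without such a check. Loss of signal would in any case not show a substitution, which is how the name rix1E414K reads.

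Ribosomal proteins build the large and the small subunit of the ribosome, and their genes are among the most strongly transcribed of a growing yeast cell, with many of them present as near-identical paired copies. In fission yeast their promoters typically carry a HomolD box, which takes the place of a TATA element, often with a HomolE box just upstream of it. Newly made H3 can enter chromatin outside replication when nucleosomes are displaced, for example by remodelling at promoters or by passage of RNA polymerase through a gene.

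HomolD boxes were common in these promoters and rare in those of other genes. An exact HomolD box (CAGTCACA, searched on both strands over the 500 bases) was present in 15 of the 24 promoters, against 7 of 847 promoters of other genes (0.826%). Of those 7, the windows of trz2, ebs1, elp5 and sib3 overlapped the promoter or body of a ribosomal protein gene. The first base of the box lay 16 to 85 bases before the annotated gene start over 16 copies, and in 14 of the 15 genes the nearest copy lay 43 to 75 bases before it. With 1 mismatch allowed in the last 100 bases, 23 of 24 ribosomal protein promoters held a match, against 49 of 847 others (5.79%). The HomolE core (ACCCTACC, both strands, no overlap with HomolD) was present in 7 of 24, against 14 of 847 (1.65%), and 19 of 24 held at least 1 of the boxes. A match of letters is a description and not a shown binding site. The annotated start lies 0 to 80 bases (median 16.5) before the first coding base.

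The promoters shown are a selection: rpl26, rps21 and rps2402 had low promoter ratios, rps001 had the highest gene body, and rpl2101 and rps2302 had the high promoter ratios. Not shown are rps2501, which had the lowest promoter, and rpl4302, which had the largest difference between promoter and body. Each run is the 160 bases up to the annotated start, 5′ to 3′ on the strand of the gene, from RefSeq (ASM294v3), with exact HomolD and HomolE core matches in capitals. The coordinates are those of ASM294v3; positions in the array design lie 900 or 1800 bases higher, on the left and on the right of a hole in the tiling.
rpl26 (chrII:1558637-1558796, minus strand): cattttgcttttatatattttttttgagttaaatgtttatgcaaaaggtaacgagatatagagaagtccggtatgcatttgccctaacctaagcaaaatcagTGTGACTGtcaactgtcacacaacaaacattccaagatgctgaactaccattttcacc
rps21 (chrII:2083708-2083867, plus strand): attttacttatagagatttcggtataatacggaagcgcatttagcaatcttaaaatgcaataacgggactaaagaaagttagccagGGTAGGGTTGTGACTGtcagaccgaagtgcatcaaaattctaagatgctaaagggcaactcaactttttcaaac
rps2402 (chrII:2180743-2180902, plus strand): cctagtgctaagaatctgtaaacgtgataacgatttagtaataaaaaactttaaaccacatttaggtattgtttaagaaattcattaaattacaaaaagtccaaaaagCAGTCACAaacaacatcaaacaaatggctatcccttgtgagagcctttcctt
rps001 (chrII:2778745-2778904, plus strand): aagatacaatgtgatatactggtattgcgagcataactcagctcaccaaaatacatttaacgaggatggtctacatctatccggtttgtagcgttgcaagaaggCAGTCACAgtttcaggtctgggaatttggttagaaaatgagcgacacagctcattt
rpl2101 (chrII:2503781-2503940, minus strand): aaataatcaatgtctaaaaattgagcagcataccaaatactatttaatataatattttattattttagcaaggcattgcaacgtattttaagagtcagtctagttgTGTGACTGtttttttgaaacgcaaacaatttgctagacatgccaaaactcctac
rps2302 (chrII:2896927-2897086, plus strand): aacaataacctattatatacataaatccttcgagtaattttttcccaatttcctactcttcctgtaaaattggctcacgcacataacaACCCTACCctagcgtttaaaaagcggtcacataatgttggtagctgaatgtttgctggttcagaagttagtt
In rps21 the HomolE core and HomolD boxes abut, and rps2302 holds the HomolE core but no exact HomolD box. Apart from rps2402, which overlaps no annotated gene there, these stretches overlap an annotated long noncoding RNA. Over all 24 genes, 188 of 240 promoter probe places (78.3%) lie inside another annotated gene, in 8 genes all 10 of them. In 2 genes, rpl4302 (within ucp8) and rps902 (within pdp1), the body too lies inside the annotated span of a gene on the other strand.

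In WT, newly made H3 was lower over the promoters of the ribosomal protein genes than over their bodies, as it was over other genes. The median promoter-minus-body difference was -0.13 over the 24 genes and -0.099 over the 847 others, and it was below 0 in 20 of the 24. It was above 0 in 16.7% of the 24 genes and in 31.9% of all 871 genes. The median body ratio was 0.049 in the ribosomal protein genes and 0.043 in the others, and the median promoter ratio was -0.091 and -0.062. By array the median difference of the ribosomal protein genes was -0.19, -0.099 and -0.076 in WT replicates 1, 2 and 3, beside -0.20, -0.042 and -0.062 in the others. Both channels moved with the difference: the promoter-minus-body median over the 24 genes was -0.69 in log2 Cy5 and -0.64 in log2 Cy3. Promoters also had a lower GC content than bodies in 21 of 24 genes (median 32.3% against 43.5%, and 31.7% against 36.8% in the other genes). With the trend on GC removed from each array, the median difference was -0.038, and the part of base composition in it was otherwise not tested.

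**Figure D1:**
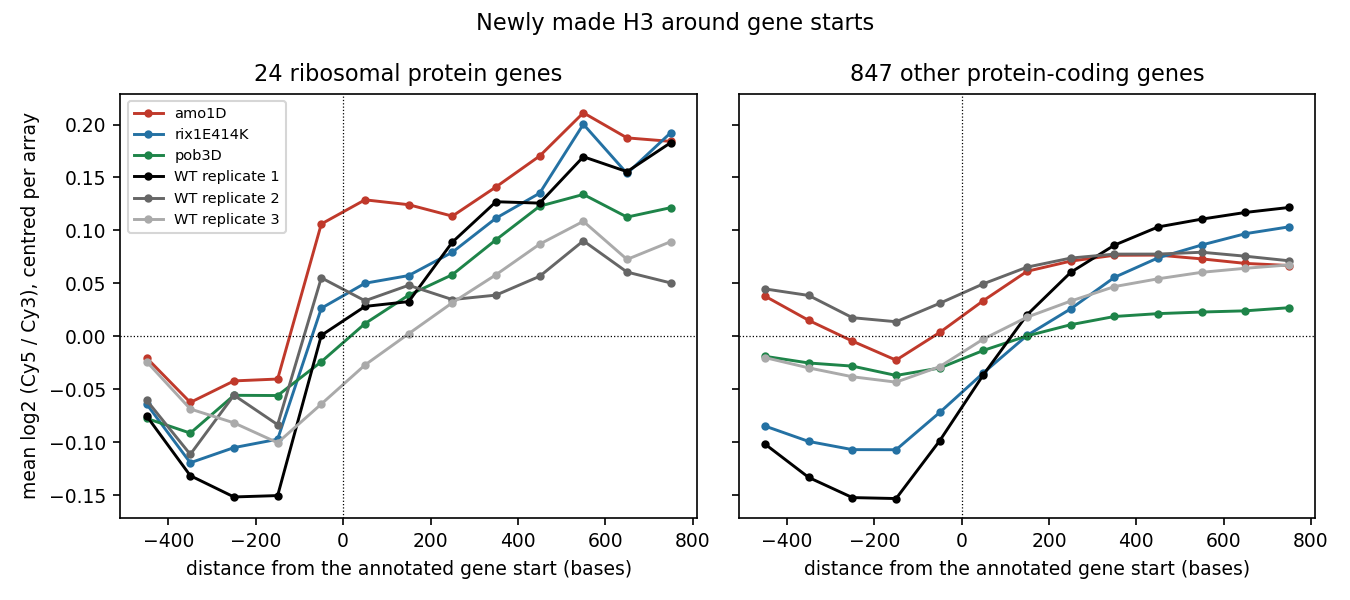
Mean log2 ratio of Cy5 over Cy3 in 100-base bins from 500 bases before to 800 bases after the annotated gene start, for 24 ribosomal protein genes (left) and 847 other protein-coding genes (right), with 1 line for each array. The lines are lowest upstream of the start, and in the ribosomal protein genes the amo1D line lies above all WT lines in every bin drawn.

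Averaged by distance, the ribosomal protein genes lay at -0.11 ± 0.035 (SD over the 3 WT arrays) between 200 and 100 bases before the start. They lay at -0.0026 ± 0.060 in the next 100 bases, where the HomolD boxes lie. Between these bins their mean GC content rose from 31.8% to 39.4%. Other genes, where the box is rare, rose from -0.061 ± 0.085 to -0.032 ± 0.065. The ratio was 0.028 ± 0.023 between 100 and 200 bases into the gene, where GC content peaked at 47.6%, and 0.12 ± 0.042 between 500 and 600 bases, where 19 of the genes still had probes. Other genes had 0.035 ± 0.027 and 0.084 ± 0.025 in these 2 bins of the gene. In the last 100 bases before the annotated 3′ end, the ribosomal protein genes had 0.061 ± 0.057 and the other genes 0.016 ± 0.023. The lowest 100-base bin of a gene and its promoter lay in the promoter in 18 of 24 ribosomal protein genes, and the highest in 3. These bins were not counted in the other genes, and longer genes have more body bins. Fragments of 400 to 600 bp blur any feature narrower than that.

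The genes differed widely from each other, and these differences recurred between arrays. Across the 24 genes, WT body ratios correlated between arrays with Pearson r of 0.73 to 0.95, and promoter ratios with r of 0.72 to 0.85. The promoter-minus-body difference recurred less closely, with r of 0.52 to 0.72. These points share arrays and, within a gene, neighbouring probes. Promoter and body correlated with r = 0.74 over the 24 genes.

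**Figure D2:**
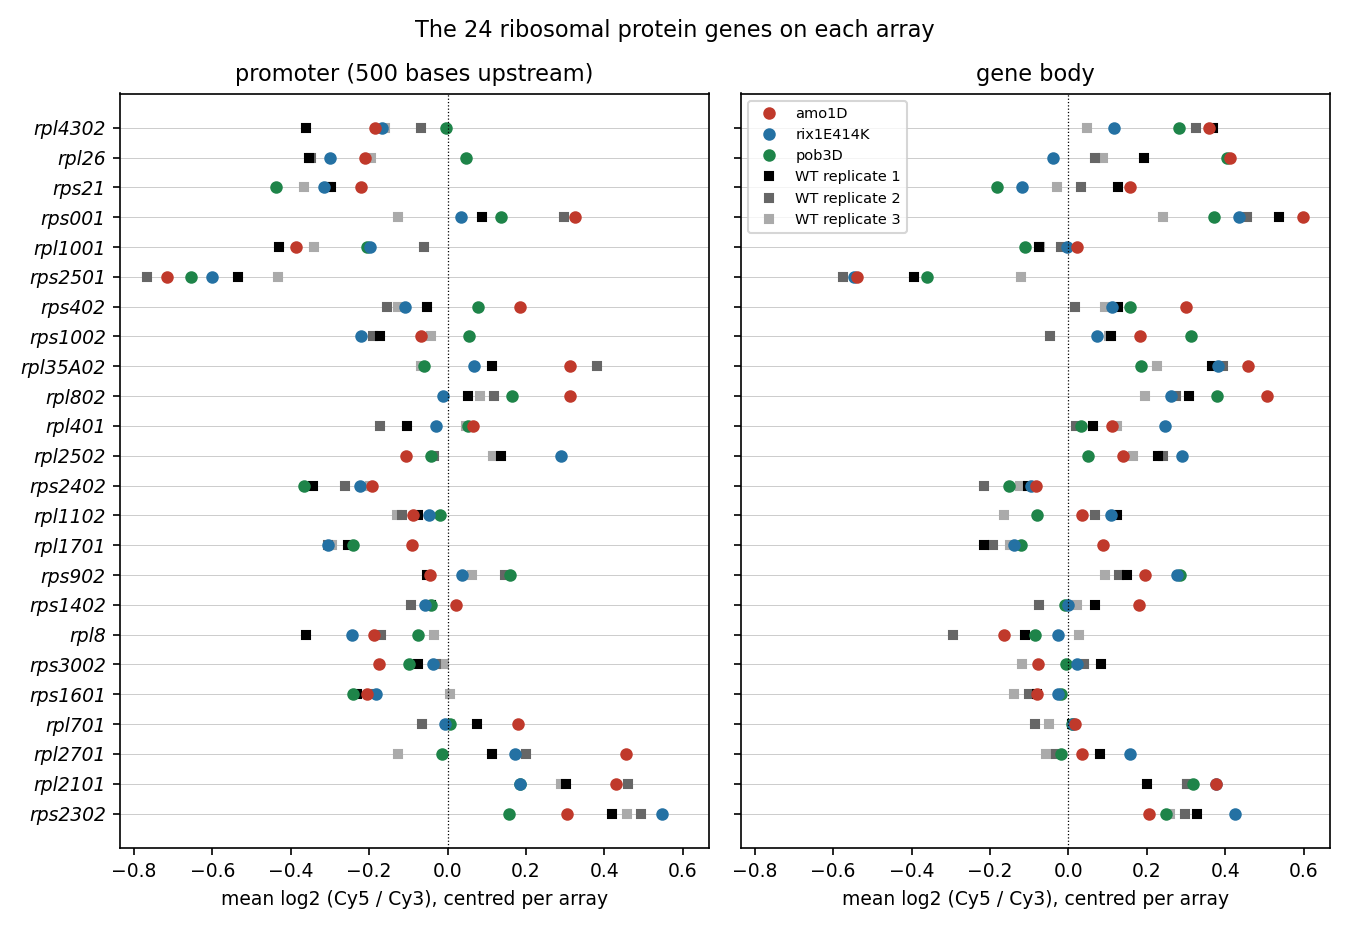
Mean log2 ratio of each of the 24 ribosomal protein genes on each array, promoter on the left and gene body on the right, ordered by the WT promoter-minus-body mean with the lowest at the top. Circles are the mutant arrays and squares the 3 WT replicates, and rps2501 has the lowest promoter on every array.

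The bodies called above the array median lay above it on each WT array. The body of rps001, which encodes uS2 of the small subunit (chrII:2778905-2779942, plus strand), was 0.60 in amo1D, 0.43 in rix1E414K and 0.37 in pob3D, against 0.54, 0.46 and 0.24 in WT replicates 1, 2 and 3. All 6 values lie above 0, with WT replicate 3 the lowest, and the WT mean was 0.41 ± 0.15 (SD, n = 3; limma adjusted p = 0.00532). The body of rpl35A02, the gene of eL33 (chrII:2405319-2405978, minus strand), was 0.46 in amo1D, 0.38 in rix1E414K and 0.19 in pob3D, against 0.37, 0.40 and 0.23 in WT replicates 1, 2 and 3 (WT mean 0.33 ± 0.091, adjusted p = 0.0049). The body of rps2302, the gene of uS12 (chrII:2897087-2897633, plus strand), was 0.20 in amo1D, 0.42 in rix1E414K and 0.25 in pob3D, against 0.33, 0.30 and 0.26 in WT replicates 1, 2 and 3 (WT mean 0.29 ± 0.034, adjusted p = 0.00375). Of the 24 bodies, 16 had a WT mean above 0, and 8 of these passed the test (adjusted p under 0.05), against a background of 31.6% of the 871 genes. Besides the 3 above, the bodies that passed were rpl2101 at 0.27, rpl802 at 0.26, rpl4302 at 0.25, rpl2502 at 0.21 and rps902 at 0.12. The call of rps902 was lost under 8 of 16 alternatives, among them the removal of body probes with a near match elsewhere.

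Another 8 bodies had a WT mean below 0, and 3 of these passed the test, against a background of 17%. The body of rps2501, the gene of eS25 (chrII:1274250-1274719, plus strand), was -0.54 in amo1D, -0.55 in rix1E414K and -0.36 in pob3D, against -0.39, -0.57 and -0.12 in WT replicates 1, 2 and 3. All 6 values lie below 0, although WT replicate 3 was far above the others (WT mean -0.36 ± 0.23, adjusted p = 0.0178). The body of rpl1701, the gene of L17 (chrII:1733330-1734009, minus strand), was 0.088 in amo1D, -0.14 in rix1E414K and -0.12 in pob3D, against -0.21, -0.19 and -0.15 in WT replicates 1, 2 and 3 (WT mean -0.19 ± 0.033, adjusted p = 0.0131). The amo1D array stood apart there, as the only one above 0. The body of rps2402, the gene of eS24 (chrII:2180903-2181481, plus strand), was -0.083 in amo1D, -0.096 in rix1E414K and -0.15 in pob3D, against -0.10, -0.21 and -0.12 in WT replicates 1, 2 and 3 (WT mean -0.15 ± 0.060, adjusted p = 0.0335), and lost its call under 5 of 16 alternatives. Without WT replicate 1, 0 bodies passed the test below and 5 above the median, and without replicate 2 the count below was 1. With the trend on GC removed, 5 bodies passed below it.

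Promoters divided in the same way. The promoter of rps2302 was 0.30 in amo1D, 0.55 in rix1E414K and 0.16 in pob3D, against 0.42, 0.49 and 0.46 in WT replicates 1, 2 and 3, all above 0 (WT mean 0.46 ± 0.037, adjusted p = 2e-05). The promoter of rpl2101, the gene of eL21 (chrII:2503183-2503780, minus strand), was 0.43 in amo1D, 0.19 in rix1E414K and 0.19 in pob3D, against 0.30, 0.46 and 0.29 in WT replicates 1, 2 and 3 (WT mean 0.35 ± 0.094, adjusted p = 0.000885). With normexp background correction its WT value was 0.044 and the call was lost. A WT mean above 0 was found in 9 promoters, and these 2 passed the test, against a background of 16.6%. The other 15 promoters had a mean below 0, and 6 of them passed, against a background of 28.5%. The promoter of rps2501 was -0.71 in amo1D, -0.60 in rix1E414K and -0.65 in pob3D, against -0.53, -0.77 and -0.43 in WT replicates 1, 2 and 3 (WT mean -0.58 ± 0.17, adjusted p = 3.67e-07), and was the lowest promoter of the 24 on each array. The others were rps21 at -0.32, rpl26 at -0.30, rpl1701 at -0.28, rpl1001 at -0.28 and rps2402 at -0.27. Without WT replicate 2, 2 promoters passed below and 1 above the median. Leaving out promoter probes inside other annotated genes left 11 genes with a promoter, of which 4 passed below and 1 above, with a median of -0.00365. This median covers fewer genes, so it is not like for like with that of all 24.

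Promoter and body differed within 6 genes, each with the lower value in the promoter, against a background of 31.3%. The largest difference was at rpl4302, the gene of eL43 (chrII:1513330-1513751, minus strand), with a promoter minus body of -0.54 in amo1D, -0.28 in rix1E414K and -0.29 in pob3D, against -0.73, -0.39 and -0.21 in WT replicates 1, 2 and 3. All 6 values lie below 0, with WT replicate 1 farthest down (WT mean -0.44 ± 0.26, limma adjusted p = 0.000194). For promoter minus body the spread was pooled strongly over genes (SE 0.093 here), so the p-value does not measure this gene's own spread. The gene lies within the annotated span of ucp8, on the other strand. Past its 3′ end, at 422 bases, the ratio went above every probe inside the gene in WT replicates 1 and 2. The probe at 710.5 bases from the start had 0.74, 0.72 and 0.25 in WT replicates 1, 2 and 3. The high body value thus does not end with this gene. The promoter minus body of rpl26, the gene of uL24 (chrII:1558179-1558636, minus strand), was -0.62 in amo1D, -0.26 in rix1E414K and -0.36 in pob3D, against -0.55, -0.42 and -0.28 in WT replicates 1, 2 and 3 (WT mean -0.42 ± 0.13, adjusted p = 0.000247). For rps21, the gene of S21 (chrII:2083868-2084323, plus strand), it was -0.38 in amo1D, -0.20 in rix1E414K and -0.25 in pob3D, against -0.42, -0.34 and -0.34 in WT replicates 1, 2 and 3 (WT mean -0.37 ± 0.051, adjusted p = 0.000999). For rps001 it was -0.27 in amo1D, -0.40 in rix1E414K and -0.24 in pob3D, against -0.45, -0.16 and -0.37 in WT replicates 1, 2 and 3 (WT mean -0.33 ± 0.15, adjusted p = 0.00345). The other genes called were rpl1001, the gene of L10, at -0.22 and rps2501 at -0.21. The call of rps2501 was lost under 10 of 16 alternatives, and the count was 3 without WT replicate 1 and 3 without replicate 3. Without promoter probes inside other genes it was 2, over the 11 genes that then had a promoter, with a median difference of -0.146.

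**Figure D3:**
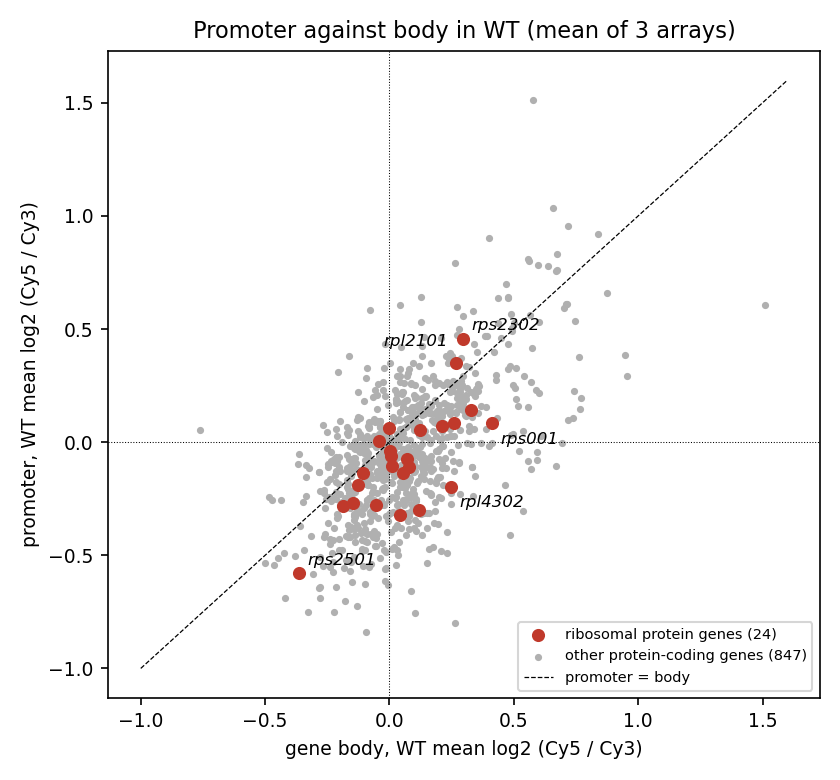
WT mean log2 ratio (3 arrays) of the promoter against that of the gene body, for 24 ribosomal protein genes (red) and 847 other protein-coding genes (grey), with the line of equal values dashed. The ribosomal protein genes lie within the cloud of other genes, 20 of 24 below the line, and 31.9% of all 871 genes lie above it.

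No ribosomal protein gene had a promoter above its body at an adjusted p under 0.05, against a background of 7.23%, and 0 had one at an unadjusted p under 0.05, beside 9.07% of all genes. The highest difference was at rps2302, with 0.10 in amo1D, 0.12 in rix1E414K and -0.094 in pob3D, against 0.092, 0.20 and 0.20 in WT replicates 1, 2 and 3 (WT mean 0.16 ± 0.061, adjusted p = 0.145). Its WT mean ran from 0.0995 with promoters of 250 bases to 0.32 with normexp, and it passed the test under 2 of 15 alternatives. At this gene the ratio stayed high upstream. Within the gene and its promoter, the highest bin was 400 to 300 bases before the start (0.54 ± 0.044). Beyond the promoter the ratio went higher in WT replicates 1 and 2, so this bin is not a peak there. The single probe at -996.5 bases from the start had 0.75, 0.94 and 0.48 in WT replicates 1, 2 and 3. The promoter minus body of rpl2101 was 0.053 in amo1D, -0.19 in rix1E414K and -0.13 in pob3D, against 0.10, 0.16 and -0.013 in WT replicates 1, 2 and 3 (WT mean 0.082 ± 0.087). It was 0.42 in amo1D, 0.014 in rix1E414K and 0.0052 in pob3D, against 0.032, 0.23 and -0.068 in WT replicates 1, 2 and 3 (WT mean 0.065 ± 0.15) at rpl2701, the gene of L27. With normexp the WT mean turned to -0.30 at rpl2101 and -0.12 at rpl2701, so neither direction held. At rpl701 it was 0.16 in amo1D, -0.019 in rix1E414K and -0.0034 in pob3D, against 0.066, 0.020 and 0.056 in WT replicates 1, 2 and 3 (WT mean 0.047 ± 0.024), and -0.033 with the GC trend removed. The annotation names the product of rpl701 as an L7-like protein of RNase MRP.

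**Figure D4:**
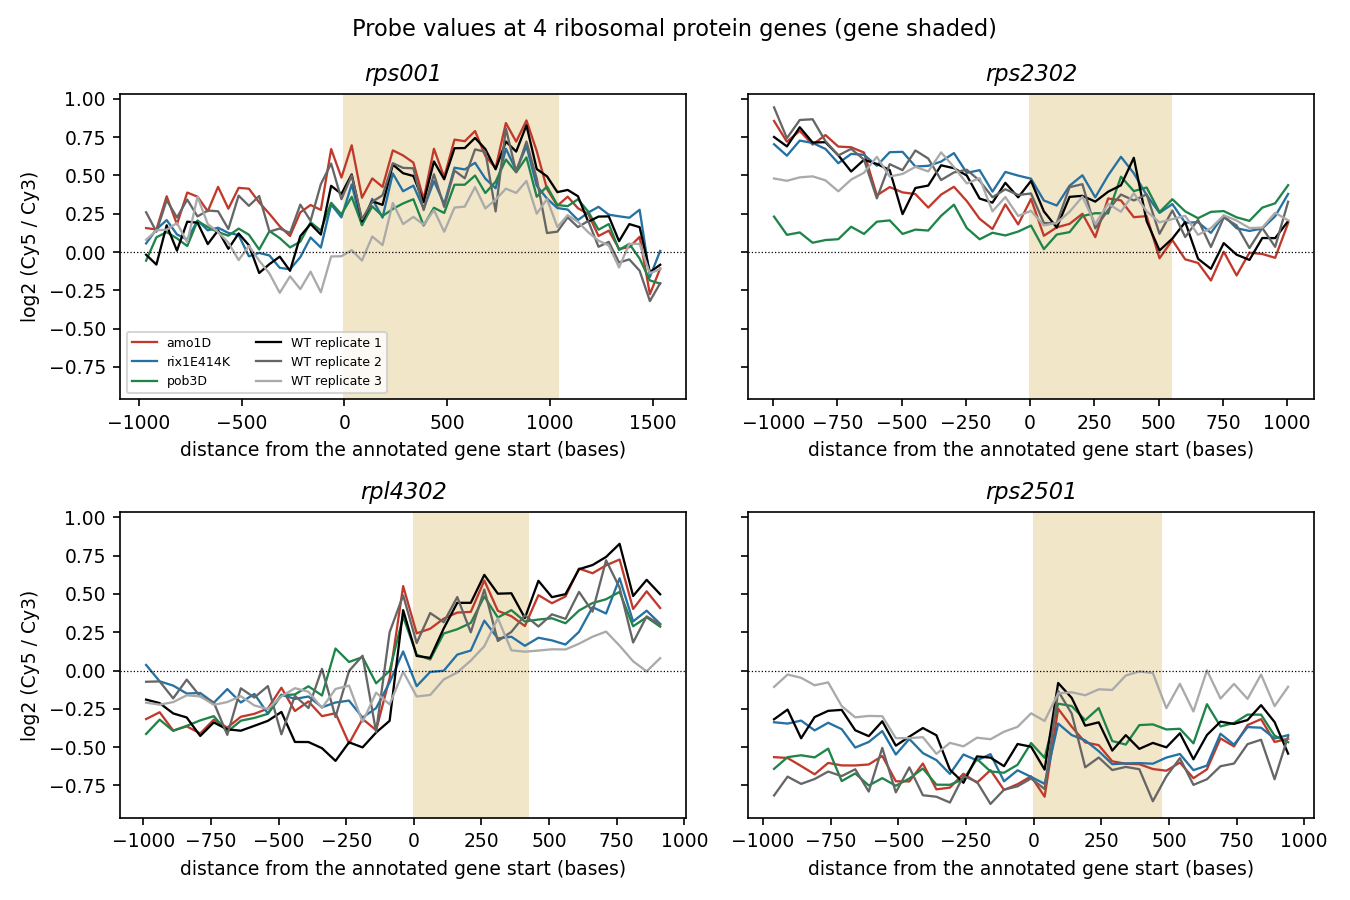
Log2 ratio of single probes along rps001, rps2302, rpl4302 and rps2501, by distance from the annotated gene start, with the gene shaded and 1 line for each array. On all 6 arrays the values inside rps001 and rpl4302 average above those of the 500 bases upstream, the values in the 500 bases upstream of rps2302 lie above 0, and those inside rps2501 lie below 0.

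Adjacent ribosomal protein genes could differ in level. The genes rps001 and rpl2701 converge, with 110 bases between their annotated ends, and their WT body means were 0.41 ± 0.15 and -0.0027 ± 0.073, with rps001 the higher on all 6 arrays. The ratio in rps001 was highest between 800 and 900 bases from its start (0.60 ± 0.16). The bins at the facing ends lay closer together, at 0.23 ± 0.14 in rps001 and 0.14 ± 0.061 in rpl2701. The genes rpl701 and rps1402 are divergent with 67 bases between them, so most of each promoter window lies inside the other gene. Their body means were -0.042 ± 0.047 and 0.0049 ± 0.073, both within the WT spread of 0. Without these 2 genes the median promoter ratio was -0.109 (an alternative chosen after the data were seen).

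By class, the WT promoter-minus-body median was -0.14 in the 13 large subunit genes and -0.12 in the 11 small subunit genes, and -0.14 in the 13 genes with a coding intron and -0.12 in the 11 without. It was -0.12 in the 15 genes with an exact HomolD box and -0.14 in the 9 without. The body median was -0.0027 in the genes with the exact box and 0.12 in those without, where all 9 bodies were above 0. Of these 9, rps3002 (0.0012) and rpl1102 (0.0092) lay next to 0. Without probes with a near match elsewhere, rps3002 was -0.0075 and rps402 -0.063, while the others stayed above 0. With the GC trend removed, rpl1102 was -0.058 and rps1002 -0.079. The bodies of rpl2502, rpl4302, rpl802, rps2302 and rps902 stayed above 0 under all 16 alternatives. With 1 mismatch allowed in the last 100 bases, 23 of 24 promoters held the box. The class medians describe the genes and were not tested.

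Paired copies limit what a body value means for 1 gene, since 160 of the 353 body probe places (45.3%) have a near match elsewhere in the genome, against 13 of 240 promoter places (5.42%). Without such probes (an alternative chosen after the data were seen), the WT body of rps402 was -0.063 against 0.078 with them, that of rps902 0.019 against 0.12, that of rpl1001 -0.17 against -0.056 and that of rpl2101 0.39 against 0.27. The bodies below the median were then 5. The genes rpl26, rps21 and rpl8 have no such probes.

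Other genes of protein synthesis were set beside them. In the 19 mitochondrial ribosomal protein genes the WT promoter-minus-body median was -0.13, with 1 gene above and 7 below at the adjusted threshold. It was -0.24 in the 10 translation factor genes (0 above, 5 below) and -0.12 in the 15 ribosome biogenesis genes (1 above, 3 below). The gene rpp202, of the P-stalk of the large subunit, had -0.13 and was not called. None of the mitochondrial ribosomal protein, translation factor or ribosome biogenesis promoters held an exact HomolD box. The lists were drawn from the product text of the annotation.

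In amo1D most ribosomal protein gene bodies had a higher value than the WT mean, but none passed the test. The median amo1D-minus-WT body difference was 0.075 over the 24 genes and -0.0090 over all 871. It was 0.062 in the 10 translation factor genes, close to the ribosomal protein genes. In the 19 mitochondrial ribosomal protein genes it was 0.019, and in the 15 ribosome biogenesis genes -0.011. The amo1D value lay above all 3 WT values in 15 of 24 bodies, against a background of 22.6% of genes, and below them in 2, against 29.3%. No body passed the test in either direction (limma over 6 arrays, background 0% higher and 0% lower). At an unadjusted p under 0.05, 4 ribosomal protein bodies were higher, beside 3.67% of all genes, and 0 lower, beside 1.95%. With 1 mutant array and 3 WT arrays, the smallest one-sided p of an exact permutation test is 0.25.

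The bodies with the largest differences in amo1D were rpl26 and rpl1701. At rpl26 the body was 0.41 in amo1D, -0.040 in rix1E414K and 0.41 in pob3D, against 0.19, 0.068 and 0.089 in WT replicates 1, 2 and 3, so amo1D and pob3D lay above the WT range and rix1E414K below it. The amo1D-minus-WT difference was 0.29 ± 0.089 (SE, adjusted p = 0.82). At rpl1701 the difference was 0.27 ± 0.079 (SE, adjusted p = 0.82), and within the slide it was 0.30. The lowest values were -0.18 ± 0.17 at rps2501 and -0.090 ± 0.079 at rps2302. Against WT replicate 1 on its own slide, the median body difference of amo1D was 0.039, with 16 of 24 genes above 0. A fit with the slide as a block leaves no residual degrees of freedom, so it gives these within-slide values and no test. In the 2 channels, the median amo1D-minus-WT body difference was 0.11 in log2 Cy5 and 0.039 in log2 Cy3, beside -0.018 and -0.0024 over all genes.

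Promoters in amo1D had a median difference of 0.077, beside 0.026 over all genes. The amo1D promoter lay above all WT values in 10 of 24 genes, against a background of 30.5%, and below them in 3, against 13.9%. None was called, against 0.23% called higher and 0% called lower. The promoter of rpl2701 was 0.46 in amo1D, 0.17 in rix1E414K and -0.014 in pob3D, against 0.11, 0.20 and -0.13 in WT replicates 1, 2 and 3, a difference of 0.39 ± 0.18 (SE, adjusted p = 0.999). The promoter-minus-body difference had a median change of -0.025, beside 0.032 over all genes, and lay above all WT values in 4 genes (background 30%) and below in 5 (background 11.9%). None was called (background 0% in both directions). Within the slide that median was 0.052, the opposite sign.

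**Figure D5:**
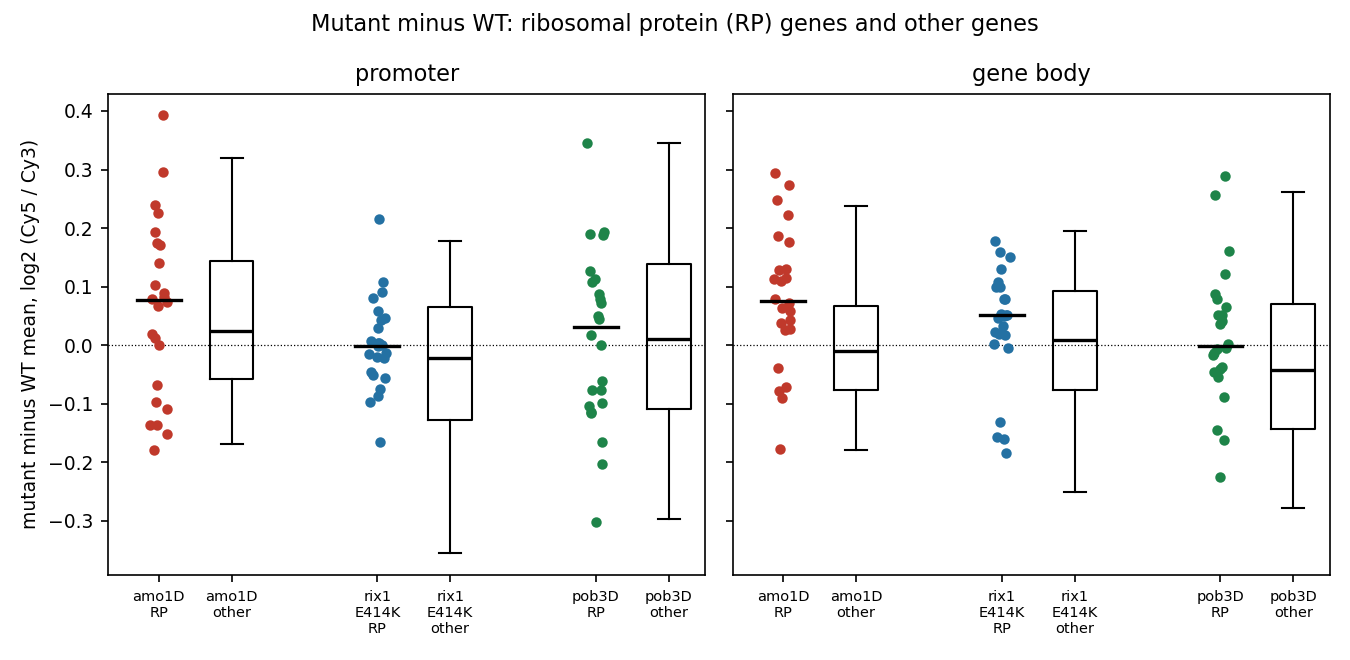
Mutant-minus-WT difference of the log2 ratio for promoters (left) and gene bodies (right). Points are the 24 ribosomal protein (RP) genes with their median as a bar, and boxes show the quartiles of 847 other genes with whiskers from the 5th to the 95th percentile; the amo1D body points have a median of 0.075.

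In rix1E414K the gene bodies had a median difference of 0.051, beside 0.011 over all genes. The value lay above all WT values in 11 of 24 bodies, against a background of 33.2%, and below in 2, against 22.4%. None was called (background 0% in both directions), and 0 had an unadjusted p under 0.05, beside 2.76% of all genes higher and 2.99% lower. The bodies with the largest values were rpl401, the gene of uL4, and rpl2701. The body of rpl401 was 0.11 in amo1D, 0.25 in rix1E414K and 0.032 in pob3D, against 0.062, 0.021 and 0.12 in WT replicates 1, 2 and 3, a rix1E414K-minus-WT difference of 0.18 ± 0.084 (SE, adjusted p = 0.695). The body of rpl2701 was 0.036 in amo1D, 0.16 in rix1E414K and -0.019 in pob3D, against 0.081, -0.032 and -0.057 in WT replicates 1, 2 and 3, a difference of 0.16 ± 0.091. The body of rps21 was 0.16 in amo1D, -0.12 in rix1E414K and -0.18 in pob3D, against 0.13, 0.032 and -0.030 in WT replicates 1, 2 and 3, with rix1E414K and pob3D below the WT range. The lowest rix1E414K differences were -0.18 ± 0.17 at rps2501 and -0.16 ± 0.092 at rps21. The whole-cell extract channel moved here too: the rix1E414K log2 Cy3 of the body lay below all WT values in 16 of 24 genes (background 31.3%), and log2 Cy5 in 9 (background 24.7%). The median body difference was -0.13 in log2 Cy3 and -0.0997 in log2 Cy5, beside -0.0070 and 0.00030 over all genes, and within the slide it was -0.25 and -0.20. Its part in the ratio was not tested.

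The rix1E414K promoters had a median difference of -0.00056, beside -0.020 over all genes, and 7 of 18 alternatives gave it the other sign. They lay above all WT values in 3 genes (background 15.8%) and below in 4 (background 25.8%), and none was called (background 0% higher and 1.15% lower). The promoter minus body had a median change of -0.046, beside -0.033, above all WT values in 4 genes (background 10.7%) and below in 9 (background 25.6%), and none was called (background 0.115% in each direction).

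In pob3D, which lacks part of FACT, a chaperone that handles nucleosomes during transcription, the ribosomal protein bodies had a median difference of -0.00092, beside -0.040 over all genes. The value lay above all WT values in 9 of 24 bodies, against a background of 25.1%, and below in 5, against 40.5%. Within the slide that median was 0.033, and 9 of 18 alternatives gave it the other sign. None was called (background 0% in both directions). At an unadjusted p under 0.05, 2 were higher, beside 5.63% of all genes, and 0 lower, beside 9.18%. The 2 were rpl26, with a pob3D-minus-WT body difference of 0.29 ± 0.089 (SE, adjusted p = 0.286), and rps1002, the gene of eS10, with 0.26 ± 0.096 (adjusted p = 0.309). The body of rps1002 was 0.18 in amo1D, 0.073 in rix1E414K and 0.31 in pob3D, against 0.11, -0.047 and 0.10 in WT replicates 1, 2 and 3. The body of rpl2502, the gene of uL23, was 0.14 in amo1D, 0.29 in rix1E414K and 0.050 in pob3D, against 0.23, 0.24 and 0.17 in WT replicates 1, 2 and 3. The lowest pob3D differences were -0.23 ± 0.092 at rps21 and -0.16 ± 0.081 at rpl2502.

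The pob3D promoters had a median difference of 0.031, beside 0.011 over all genes, above all WT values in 9 genes (background 27.7%) and below in 7 (background 24.1%), and none was called (background 0% in both directions). That median was 0.00597 within the slide and -0.0714 over the 11 genes with promoter probes outside other genes. The last value covers fewer genes, so it is not like for like with the 0.031 over all 24. The largest was at rpl26, where the promoter was -0.21 in amo1D, -0.30 in rix1E414K and 0.046 in pob3D, against -0.35, -0.35 and -0.20 in WT replicates 1, 2 and 3, and the lowest at rps2302, -0.30 ± 0.17 (SE, adjusted p = 0.764). The promoter minus body had a median change of -0.031, beside 0.054 over all genes (the other sign in 4 of 18 alternatives), above all WT values in 4 genes (background 34%) and below in 4 (background 17.7%), and none was called (background 0% in both directions). The 3 mutants were set against the same WT arrays, so their differences share the WT values. The P-stalk gene rpp202, listed apart from the 24, had body differences of 0.29 in amo1D (adjusted p = 0.82), 0.15 in rix1E414K (adjusted p = 0.706) and 0.28 in pob3D (adjusted p = 0.286).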

How the data were processed

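Two-colour Agilent tiling arrays of 60-base probes at 50-base steps were analysed. Per the file headers, Agilent Feature Extraction 12.0.3.1 made the deposited linear intensity of each channel, background-subtracted and dye-normalized. The deposited series table holds the authors' linear ratio, equal to processed Cy5 over Cy3 within a relative difference of 9.05e-09. From the authors' deposited intensity values the log2 ratio was computed, marked spots removed and each array centred on its median, with no loess. The array-to-reference offset was checked in 21 windows of 100 kb, where the best further shift was 0 in all 21. Probe copies were found with blastn 2.17.0. Promoter, body and promoter-minus-body means of 871 genes entered a limma fit (version 3.58.1, R 4.3.3), 1 coefficient per genotype over 6 arrays, with Benjamini-Hochberg adjustment over all genes at 0.05. WT alone gives the residual spread (2 degrees of freedom), and each mutant array was assumed to vary like WT. For promoters limma pooled the spread of genes strongly (59.8 total degrees of freedom), and for promoter minus body nearly as strongly (45.8). The SEs of these 2 measures are thus nearly equal between genes. The fit was tested on simulated data. The files hold no mean signals, so normexp and unsubtracted alternatives used median signals. Members and lists were chosen with earlier results of these data known, though the rule for members uses names and positions alone. Values on every array were given for the 4 highest and 4 lowest by WT promoter minus body, the 3 highest and 3 lowest bodies, and per mutant the 2 largest body differences each way; a few promoters given in full were chosen after their values were seen.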

Additional observations from a re-analysis of the deposited data

How the results depend on the processing

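The 18 alternatives gave 621 values, of which 581 were counts equal to the main count or within 1.5 times of it, or medians that moved by less than the WT spread. Many of the 581 are counts of calls in a mutant, where the main count was 0. A 0 that stayed 0 is included, so the 581 says little about how stable the results are. Of 213 medians, 25 had the other sign than the main value, 9 of them the pob3D body and 7 the rix1E414K promoter. With the GC trend removed, the WT body median was -0.00727 and promoter minus body -0.038, 5 bodies were lower, 1 difference was higher and the pob3D promoter median was 0.0512. With normexp, the WT body median was 0.0992, the promoter -0.0385, 1 promoter and 1 difference were higher, and the promoter medians were 0.0162 in pob3D and -0.0201 in rix1E414K. With no background subtraction the promoter median was -0.0781 in WT and 0.0628 in amo1D minus WT. With promoters of 250 bases it was -0.0663 in WT, 0.118 in amo1D and 0.00698 in pob3D. Without promoter probes inside other genes, it was over 11 genes -0.00365 in WT, 0.0162 in rix1E414K and -0.0714 in pob3D, with 1 promoter higher and 2 differences lower. Those 11-gene medians differ from the main ones in genes as well as in probes. Within the slide, the promoter medians were 0.117 in amo1D and 0.00597 in pob3D, and the amo1D promoter minus body was 0.0521. Without probes with a near match, 5 bodies were lower and the pob3D promoter minus body was 0.0309; without the genes that share a window, promoter medians were -0.109 in WT and 0.047 in pob3D (both chosen after the data were seen). Leaving out each WT replicate in turn gave 5 to 7 bodies higher and 0 to 3 lower, 1 to 2 promoters higher and 2 to 5 lower, and 3 to 5 differences lower. The promoter medians then ran from -0.0993 to -0.0676 in WT, 0.0515 to 0.0785 in amo1D, 0.0131 to 0.0272 in pob3D and -0.00284 to 0.0145 in rix1E414K. No paired analysis was possible because the mutants carry no replicate number, and a slide block leaves no residual degrees of freedom for a test, so the within-slide values above stand alone. The cause of these shifts was not tested.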
